A study of Mus musculus with 2 samples.

Results

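Transcripts of 10 heat shock protein and chaperone genes were examined in mouse bone-marrow-derived macrophages that had been exposed to double-stranded RNA. The members were taken by gene symbol, namely Hspa8, Hspa4, Hsph1, Hsp90aa1, Hsp90ab1, Dnaja1, Dnajb1, Hspd1, Hspe1 and Hspa9, and they account for 19 of the 35556 probe sets in the deposited table and for 10 of the 21968 genes. One group came from Oasl1-/- mice and the other from wild-type (WT) mice, both of the C57BL/6J strain. The marrow cells of both groups were grown for 7 days in medium with 20% supernatant of L929 fibroblasts. They then received poly(I:C), a man-made duplex RNA, at 5 µg/ml for 9 h. Within a genotype, RNA from 3 samples was combined before labelling, which left 1 Affymetrix Mouse Gene ST array per genotype and no array of untreated cells. The comparison asks how the loss of Oasl1, which encodes an oligoadenylate synthetase-like protein, alters macrophage transcripts under this stimulus.

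Chaperones bind unfolded stretches of other proteins and help them fold, refold or be degraded. In the cytosol the HSP70 proteins work in an ATP-driven cycle that J proteins (HSP40) start and nucleotide exchange factors such as the HSP110 proteins end. HSP90 then matures a narrower set of clients that includes many kinases and receptors. In mitochondria a barrel of HSP60 closed by a lid of HSP10 folds imported proteins, beside a mitochondrial HSP70. Many of these genes are driven by heat shock factor HSF1, which binds inverted repeats of the unit GAA in promoters, called heat shock elements.

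Windows of members that hold such repeats are shown here so that the repeats can be seen. RefSeq promoter windows (GRCm38.p6, from 250 bases before to 50 after an annotated start) were at hand for 6 of the 10 members. Each is printed 5′ to 3′ on the strand of its gene, in lower case, with capitals marking every match to GAANNTTC or TTCNNGAA, the pairs of inverted repeat units, and to the triplets GAANNTTCNNGAA and TTCNNGAANNTTC that contain them. The first window, at chr1:55087898-55088197 on the plus strand, is that of Hspe1, which begins beside Hspd1 on the other strand. The next is that of Hsph1, at chr5:149636287-149636586 on the minus strand, and the last that of Dnaja1, at chr4:40722218-40722517 on the plus strand.
Hspe1: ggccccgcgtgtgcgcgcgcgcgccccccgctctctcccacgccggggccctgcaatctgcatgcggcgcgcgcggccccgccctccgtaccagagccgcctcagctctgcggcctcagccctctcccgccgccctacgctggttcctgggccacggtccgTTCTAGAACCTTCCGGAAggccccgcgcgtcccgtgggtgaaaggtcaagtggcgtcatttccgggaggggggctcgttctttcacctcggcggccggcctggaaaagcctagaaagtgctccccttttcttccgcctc
Hsph1: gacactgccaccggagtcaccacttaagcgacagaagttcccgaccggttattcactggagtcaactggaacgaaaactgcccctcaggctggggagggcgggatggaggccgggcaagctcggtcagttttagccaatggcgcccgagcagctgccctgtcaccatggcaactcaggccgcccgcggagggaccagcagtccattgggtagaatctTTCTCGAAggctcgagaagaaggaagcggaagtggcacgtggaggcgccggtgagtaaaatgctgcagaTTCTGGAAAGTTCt
Dnaja1: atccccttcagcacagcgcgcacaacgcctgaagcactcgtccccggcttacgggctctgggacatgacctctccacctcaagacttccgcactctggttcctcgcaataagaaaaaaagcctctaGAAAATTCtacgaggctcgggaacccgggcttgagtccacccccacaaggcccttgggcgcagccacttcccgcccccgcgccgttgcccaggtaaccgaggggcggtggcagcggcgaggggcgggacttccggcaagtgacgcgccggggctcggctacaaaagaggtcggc

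Triplets were found for Hspe1, Hspd1 and Hsph1, and a pair without a triplet for Dnaja1. Several members have more than 1 window, from different annotated starts: the match was in 1 of 2 windows of Hspd1, in 1 of 3 of Dnaja1 and in 2 of 2 of Hsph1, and Hspe1 has 1. At Hspe1 the triplet TTCTAGAACCTTC begins at position -89 relative to the annotated start, and it overlaps GAACCTTCCGGAA. The window of Hspd1 with the match holds the same bases on its own strand, read there as TTCCGGAAGGTTC and GAAGGTTCTAGAA. At Hsph1 the triplet TTCTGGAAAGTTC begins at position 36 after the start, and a separate pair, TTCTCGAA, at position -33. Windows of Hspa4 and Dnajb1 held no match, which says only that these letters are not in them. Of 27025 genes with a window, 0.662% held a triplet and 17.0% a pair, on either strand. The pairs and triplets read the same bases in part and are not independent matches. Hspa8, Hsp90aa1, Hsp90ab1 and Hspa9 are named only.

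By the measured values, all 10 members were lower in Oasl1-/- than in WT macrophages, and most differed slightly. With differences centred on the median gene 7 of 10 were lower. With the loess trend of the difference on the mean removed 10 of 10 were lower, as with quantile normalization. Hspd1 and Hsph1 had the largest differences, -0.45 and -0.37 on the log2 scale, or 1.36-fold and 1.29-fold lower. Hspa8, Hsp90ab1 and Hspe1 were nearly equal in both genotypes. The median difference of the 10 was -0.15, against -0.04 over all 6293 genes above the floor. Lower values were common on the Oasl1-/- array, since 63.4% of all genes above the floor were lower there and 36.6% higher. Lower were 50.0% after centring, 49.5% with the trend removed and 51.9% with quantile normalization. At least 1.2-fold lower were 2 of the 10, against a background of 9.06% of all genes, and none was at least 1.2-fold higher (background 2.70%). At least 1.1-fold lower were 5 of the 10, against 27.1% of all genes, and 0 were at least 1.1-fold higher, against 9.96%. None differed by 1.5-fold, whereas 0.556% of all genes were lower and 0.381% higher by that much.

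With centring, Hspa8, Hsp90ab1 and Hspe1 were above 0. Genes of similar brightness had medians of 0.016 for Hspa8, 0.0080 for Hsp90ab1 and -0.015 for Hspe1. The median used for centring was -0.044. Centring also altered the split of all genes at least 1.2-fold apart, to 371 lower and 275 higher. The split as deposited was 570 lower and 170 higher. The members stayed at 2 lower and 0 higher. All values and differences are log2 values of probe sets, and differences are Oasl1-/- minus WT. The floor is the 95th percentile of each array's negative control probe sets, 7.68 on the Oasl1-/- array and 7.75 on the WT array, and all 10 members were above it on both. A gene is represented by its brightest probe set on its own chromosome. With 1 array per genotype there is no spread between cultures, no difference was tested, and fewer cells of a type cannot be told apart from less RNA per cell. Levels of different genes are not set against each other, because probe sets differ in their response.

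**Figure D1:**
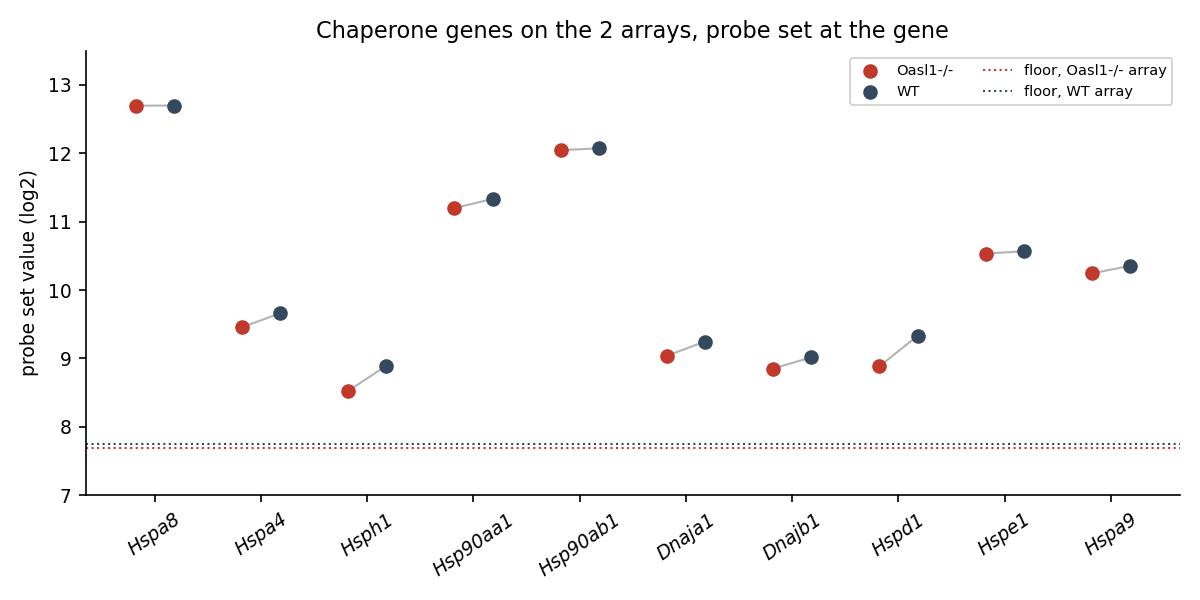
Log2 value of the probe set at the gene for each of the 10 chaperone genes, with the Oasl1-/- array (red) left of the WT array (dark), 1 point per array and no error bars because there are no replicates. Dotted lines are the floors at 7.68 and 7.75; every gene lies above them, and the slope is steepest for Hspd1 and Hsph1.

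The targeted gene and the identity of the cells were checked first. Oasl1 was 11.13 on the Oasl1-/- array and 12.59 on the WT array, 2.76-fold lower, and the sources used here do not say which of its probes fall in the deletion. The 8 macrophage markers, among them Csf1r and Itgam, were above the floor on both arrays, with differences between -0.03 and 0.07. Of 3 measured interferon response genes all 3 were far above it, at 11.45 to 13.07 in Oasl1-/- and 11.45 to 13.03 in WT. None of the 4 T cell, 3 B cell, 4 neutrophil and 4 fibroblast markers was above it on either array. The summed linear level of the 4 neutrophil markers, on the log2 scale, was 7.92 in Oasl1-/- and 7.51 in WT, and all 4 were higher on the Oasl1-/- array, by 0.04 to 0.64. The 4 fibroblast markers were also all higher on the Oasl1-/- array, and their sum was 8.62 in Oasl1-/- and 8.51 in WT. The sum was 7.54 in Oasl1-/- and 7.46 in WT for the T cell markers, and 5.98 in Oasl1-/- and 5.83 in WT for the B cell markers. All of these other markers were below the floor, and over all genes with no floor 46.6% were lower in Oasl1-/-. The part of such cells in the chaperone values was not tested.

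Among the cytosolic HSP70 proteins and their partners, the constitutive chaperone had nearly equal values. The HSP110 exchange factors Hsph1 and Hspa4 were lower, each inside the central 95% range of genes of similar brightness. Hspa8 (NM_031165, chromosome 9, positions 40609356 to 40613282, NCBIM37) encodes HSC70, the HSP70 that cells make at all times. Its value was 12.70 on the Oasl1-/- array and 12.70 on the WT array, a difference of -0.0013. Genes of similar brightness, within 0.5 of its mean, had a central 95% range of differences from -0.16 to 0.14. Hsph1 (NM_013559, chromosome 5, positions 150416862 to 150438890) encodes HSP105, an HSP110 protein that exchanges the nucleotide of HSP70. It was 8.52 in Oasl1-/- and 8.90 in WT, a difference of -0.37. Of 2116 genes of similar brightness, 3.88% had a difference as low, and its value lay just inside their central 95% range of -0.40 to 0.27. Hspa4 (NM_008300, chromosome 11, positions 53073316 to 53113981), the related exchange factor APG-2, was 9.46 in Oasl1-/- and 9.66 in WT, a difference of -0.20, or 1.15-fold lower. A difference as low was found for 11.7% of 1548 genes of similar brightness.

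The J proteins, which hand substrates to HSP70 and start its ATP hydrolysis, were lower by similar amounts. Dnaja1 (NM_008298, chromosome 4, positions 40669566 to 40681997), a J protein of the cytosol, was 9.04 in Oasl1-/- and 9.25 in WT, a difference of -0.21. Dnajb1 (NM_018808, chromosome 8, positions 86132092 to 86135802), the heat-inducible HSP40, was 8.85 in Oasl1-/- and 9.02 in WT, a difference of -0.16. Both lay inside the range of equally bright genes, where 14.6% were as low as Dnaja1 and 24.1% as low as Dnajb1.

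The HSP90 isoforms had small differences. Hsp90aa1 (NM_010480, chromosome 12, positions 111929241 to 111975825), the stress-inducible isoform, was 11.20 in Oasl1-/- and 11.33 in WT, a difference of -0.13. As low were 10.6% of 565 equally bright genes. Hsp90ab1 (NM_008302, chromosome 17, positions 45704724 to 45710210), the constitutive isoform, was 12.05 in Oasl1-/- and 12.07 in WT, a difference of -0.028, which became positive with centring.

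The mitochondrial chaperones held the largest difference of the set and one of the smallest, at genes that share a promoter region. Hspd1 (NM_010477, chromosome 1, positions 55134679 to 55144689) encodes HSP60, the barrel of the mitochondrial chaperonin. It was 8.88 in Oasl1-/- and 9.33 in WT, a difference of -0.45. Of 1856 equally bright genes, 0.862% had a difference as low, and Hspd1 was the 1 member of 10 below the central 95% range, which ran from -0.38 to 0.25. Hspe1 (NM_008303, chromosome 1, positions 55145161 to 55148151) encodes HSP10, the lid, and begins beside Hspd1 on the other strand. It was 10.53 in Oasl1-/- and 10.57 in WT, a difference of -0.034, which centring turned positive. The repeats of the first window shown above lie in the window of Hspe1 and in 1 of 2 windows of Hspd1. The part of these repeats in the difference of either gene was not tested. Hspa9 (NM_010481, chromosome 18), the mitochondrial HSP70 mortalin, was 10.24 in Oasl1-/- and 10.36 in WT, a difference of -0.11.

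Genes with and without the triplet had similar shares of lower values, which is a description and not a test. Of 31 genes above the floor with a triplet in a promoter window, members included, 22 (71.0%) were lower in Oasl1-/-, with a median of -0.06. Of 4953 genes with a window but no triplet, 64.4% were lower, with a median of -0.05. At least 1.2-fold lower were 3 of the 31 genes with a triplet (9.68%) and 9.35% of those without. Those 3 include the members Hspd1 and Hsph1, already described, so this share is not separate from the members' own values.

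**Figure D2:**
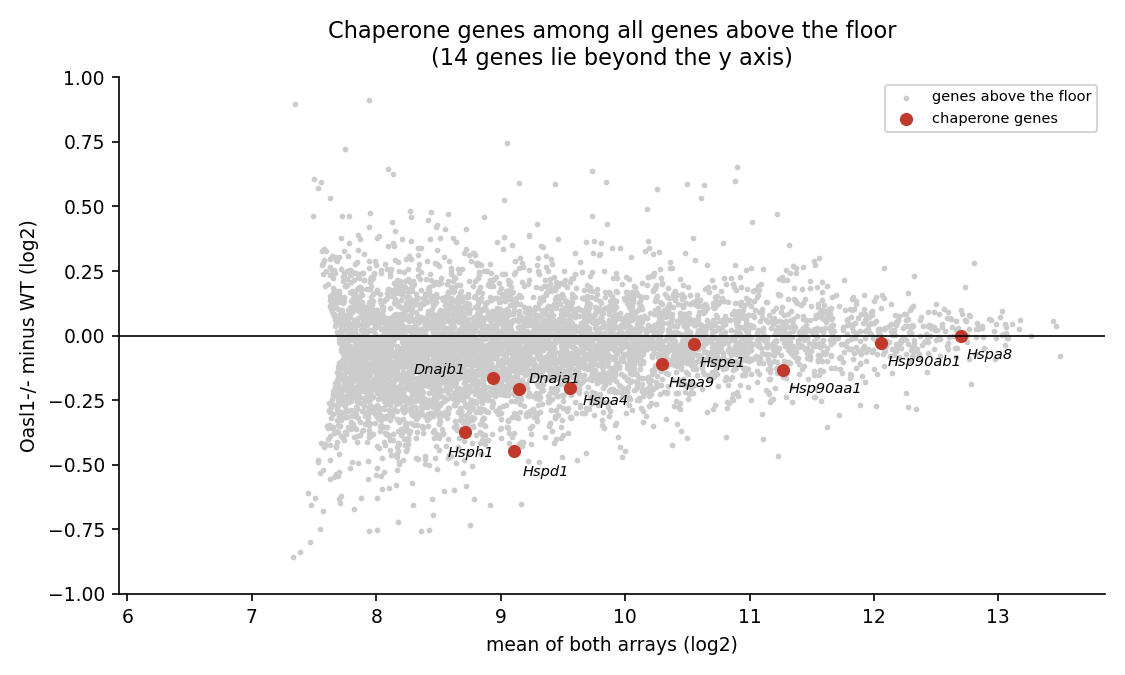
Difference of Oasl1-/- minus WT (log2, y axis) against the mean of both arrays (log2, x axis) for the 6293 genes above the floor (grey) and the 10 chaperone genes (red, named). Of all genes, 14 lie beyond the y axis. Hspd1 and Hsph1 lie lowest of the 10, and only Hspd1 is below the central 95% range of genes of similar brightness.

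Several members are measured more than once, because the array also has probe sets at places on other chromosomes that the table assigns to the same transcript. Genes with abundant mRNAs, chaperones among them, often have such processed copies. There were 7 such probe sets for 5 members, and their differences lay within 0.080 of the probe set at the gene. For Hspd1, the probe set on chromosome 11 (positions 41312239 to 41313960) was 9.49 in Oasl1-/- and 9.86 in WT, a difference of -0.37. That is close to the -0.45 at the gene, where 9 probes were used against 38 on chromosome 11. For Hspe1, the probe set on chromosome 18 was 10.53 in Oasl1-/- and 10.56 in WT, a difference of -0.035, against -0.034 at the gene.

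The other repeats gave the same picture. Hsp90aa1 had -0.13 on chromosome 11 (positions 77106957 to 77109931, 11.37 in Oasl1-/- and 11.50 in WT) and -0.12 on chromosome 3 (positions 17908806 to 17910465, 11.10 in Oasl1-/- and 11.22 in WT). For Dnaja1 the difference on chromosome 5 (positions 40189441 to 40190631) was -0.20, with 11.15 in Oasl1-/- and 11.35 in WT. Hspa8 was slightly above 0 at both of its repeats, with 0.023 on chromosome 10 (12.69 in Oasl1-/- and 12.67 in WT) and 0.026 on chromosome 5 (12.73 in Oasl1-/- and 12.71 in WT). With the brightest probe set on any chromosome in place of the one at the gene, 9 of the 10 members were lower, Hspa8 being the exception. Of all 6376 genes above the floor under that choice, 63.5% were lower. Such probe sets can take up the transcript of the gene itself, so that they are repeats of a measurement on the same RNA and not independent samples. Hsph1, Hspa4, Hsp90ab1, Dnajb1 and Hspa9 had 1 probe set each.

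**Figure D3:**
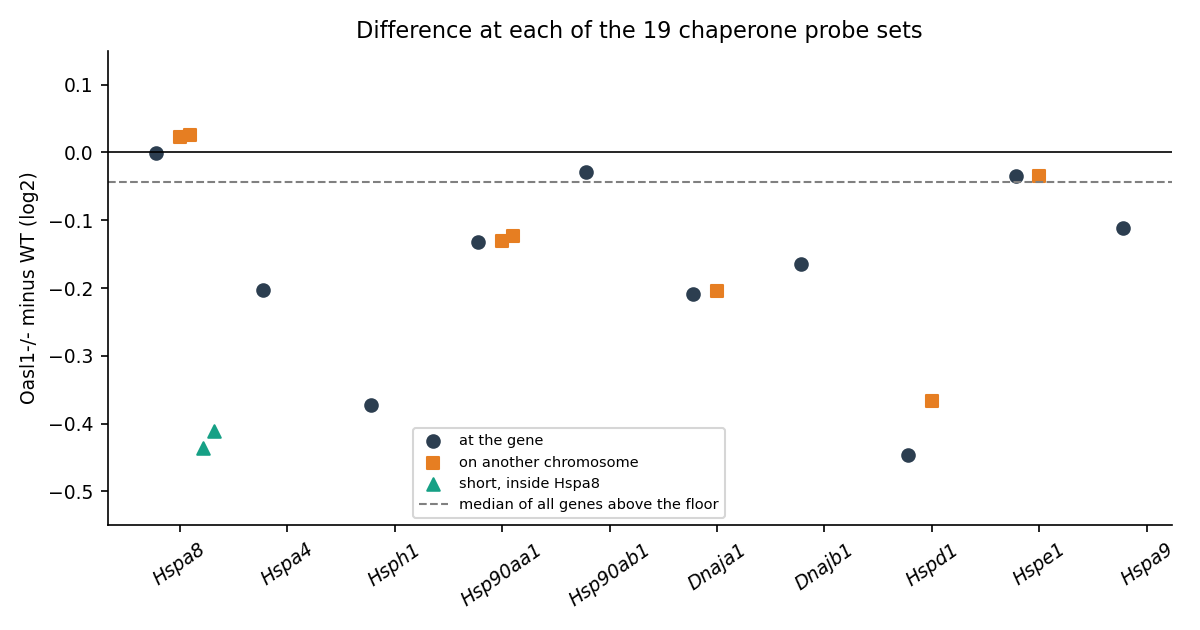
Difference of Oasl1-/- minus WT (log2) at each of the 19 chaperone probe sets, by gene: circles at the gene, squares on another chromosome, triangles short probe sets inside Hspa8. Squares lie within 0.080 of the circle of their gene, while the triangles of Hspa8 lie at -0.44 and -0.41.

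The remaining member probe sets are 2 short ones inside Hspa8, and they differed from the mRNA. Each covers 86 bases (positions 40611666 to 40611751 and 40612078 to 40612163 of chromosome 9) and carries the symbol Hspa8, but its assigned transcript (M13967) is described in the table as a small RNA able to hybridize to ribosomal RNA. The introns of Hspa8 are known to host U14 small nucleolar RNAs (snoRNAs), guides of ribosomal RNA processing. The short probe sets begin 2310 and 2722 bases after the start of Hspa8. RefSeq places Snord14c at 2307 and Snord14d at 2719 bases from its start of Hspa8 in GRCm38.p6, which was taken as a match within a tolerance of 5 bases.

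The probe set at Snord14c was 8.85 in Oasl1-/- and 9.29 in WT, a difference of -0.44, or 1.35-fold lower. That at Snord14d was 8.86 in Oasl1-/- and 9.27 in WT, a difference of -0.41, or 1.33-fold lower. Another short probe set in Hspa8, with no symbol in the table and therefore no member, begins 3475 bases from the start, where RefSeq has Snord14e at 3472 bases. It was 8.03 in Oasl1-/- and 8.77 in WT, a difference of -0.74, or 1.67-fold lower. All 3 short probe sets thus had lower values on the Oasl1-/- array, at a gene whose mRNA had nearly equal values. The first 2 share 1 assigned transcript and all 3 names rest on position, so these values do not show that 3 separate RNAs were lower.

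Other snoRNA probe sets that passed the floor were mostly lower as well. Of 388 labelled as snoRNAs only 14 passed, and a value over the floor of either array sufficed. Of these 14, 85.7% were lower in Oasl1-/- and 35.7% at least 1.2-fold lower. Among the latter, 3 passed by their WT value alone, with 7.46, 7.57 and 7.61 in Oasl1-/-, so their fold is uncertain. A higher probe set passed by its Oasl1-/- value alone (8.01, against 7.70 in WT). Without the one at Snord14e, 11 of the 13 were lower, with a median of -0.24. A difference of -0.41 or below was found for 3 of the 13, including those at 7.46 and 7.57. The U14 sequences are near copies, so each probe set may also read the RNA of its relatives. The part of the recovery or labelling of short RNAs in these values was not tested.

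**Figure D4:**
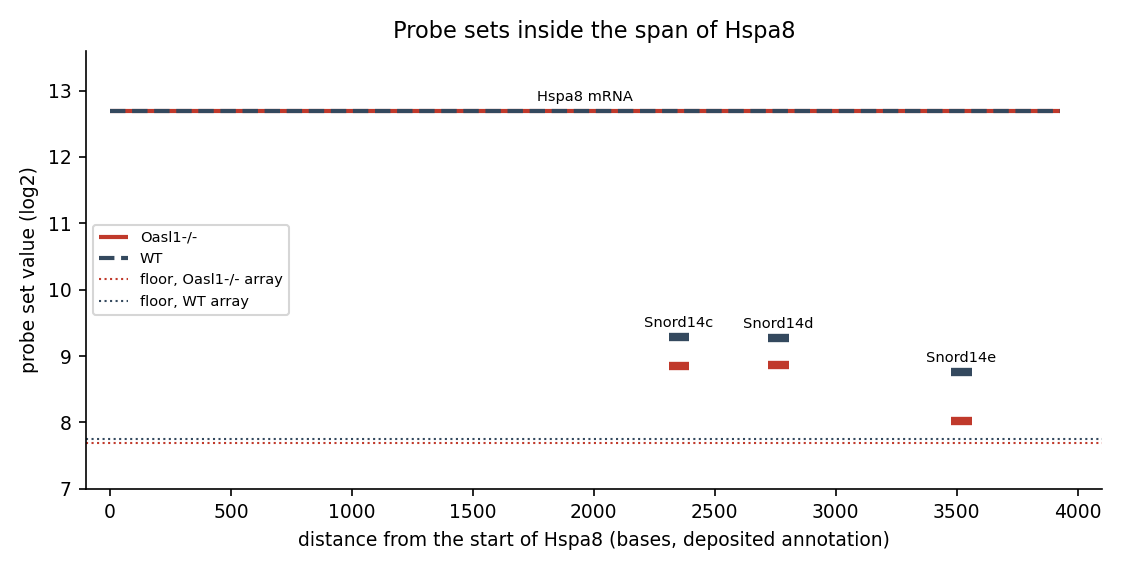
Log2 value on the Oasl1-/- array (red) and the WT array (dark) of the 4 probe sets inside the span of Hspa8, drawn over the bases they cover, by distance from the start of the gene. The mRNA lines coincide at 12.70, while the 3 snoRNA probe sets lie lower in Oasl1-/- (8.85, 8.86 and 8.03) than in WT (9.29, 9.27 and 8.77).

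The wider chaperone system was described by 10 lists of its other genes. Across them 62 genes were above the floor, of which 47 (75.8%) were lower and 15 higher in Oasl1-/-, against 63.4% lower over all genes, with a median of -0.08 against -0.04 over all genes. By the measured values 4 of the 62 (6.45%) were at least 1.2-fold lower and 0 higher, below the 9.06% and 2.70% over all genes, while 2 were when dim values were raised to the floor, Cct6a and Vbp1. With differences centred on the median gene the split of the 62 was 37 (59.7%) lower and 25 higher, against 50.0% lower over all genes. Of the 10 lists, 1 had no gene above the floor, and in the others no gene differed by 1.5-fold.

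Other genes of the HSP70 machine were lower by small amounts. Of 8 measured HSP70 family genes, 4 were above the floor and all 4 were lower, or 3 of 4 with centring, where Hspa1a was above 0. Over all genes 63.4% were lower, or 50.0% with centring. The median of the 4 was -0.14, and it ran from -0.21 to -0.04 over the alternatives, with -0.06 where the floor was required on both arrays. Hspa4l, a close relative of Hspa4, was 8.23 in Oasl1-/- and 8.44 in WT (-0.22). Hspa14, a ribosome-associated HSP70, was 7.54 in Oasl1-/-, below the floor, and 7.81 in WT, at least 1.09-fold lower. The stress-inducible Hspa1a, named here after its value was seen, was 10.55 in Oasl1-/- and 10.60 in WT. Its neighbour Hspa1b is nearly identical in sequence, so the value can hold both.

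Of 10 other J protein genes above the floor, 8 were lower, or 7 with centring, against 63.4% of all genes, or 50.0% with centring. Their median was -0.11, and it ran from -0.15 to -0.06 over the alternatives. Dnaja2, a close relative of Dnaja1, was 11.04 in Oasl1-/- and 11.27 in WT (-0.23). Dnajc8, a J protein linked to splicing, was 9.69 in Oasl1-/- and 9.87 in WT (-0.18). The 6 HSP70 cochaperones and exchange factors had a median of -0.04, which centring turned to 0.0065. Stub1, the ubiquitin ligase CHIP that sends HSP70 clients to degradation, was 9.23 in Oasl1-/- and 8.99 in WT (0.24). Bag3, an exchange factor of stressed cells, was 8.42 in Oasl1-/- and 8.55 in WT (-0.13).

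The cofactors of HSP90 deliver its clients or tune its ATP cycle. Of 13 above the floor 10 were lower, or 9 with centring, against 63.4% of all genes, or 50.0% with centring. Some of the higher genes passed by their Oasl1-/- value alone. With the floor required on both arrays 10 of 11 were lower, against 63.8% of all genes. The median was -0.10, with a range of -0.12 to -0.06 over the alternatives. Ttc4, an HSP90 cochaperone, was 7.86 in Oasl1-/- and 8.07 in WT (-0.21), and Chordc1, another, was 9.42 in Oasl1-/- and 9.61 in WT (-0.19).

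The cytosolic chaperonin CCT folds actin and tubulin. Its 8 subunits above the floor were all lower in Oasl1-/-, or 7 of 8 with centring, where Cct3, named after its value was seen, was above 0. All 8 stayed lower with the loess trend removed and with quantile normalization. Of all genes, 63.4% were lower, 50.0% with centring, 49.5% with the trend removed and 51.9% with quantile normalization. The median of the 8 was -0.10, with a range of -0.10 to -0.06 over the alternatives. Cct6a was 9.74 in Oasl1-/- and 10.09 in WT (-0.35, 1.27-fold lower), and Cct4 was 9.74 in Oasl1-/- and 9.90 in WT (-0.16). Prefoldin, which delivers new chains to CCT, had 4 of 5 genes lower under each of the scalings tried, against the same shares of all genes. Its median was -0.12, but -0.08 with centring, -0.05 with quantile normalization and -0.04 with the loess trend removed. Vbp1 was 8.96 in Oasl1-/- and 9.38 in WT (-0.42, 1.34-fold lower), and Pfdn2 was 8.85 in Oasl1-/- and 9.02 in WT (-0.17).

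Regulators and small heat shock proteins were mostly dim. None of the 10 small heat shock protein genes was above the floor on either array, among them Hspb1, chosen after its value was seen, with 4.96 in Oasl1-/- and 4.88 in WT. Of 5 genes of heat shock factors and their partners, 2 were above the floor. Hsf2, a factor that pairs with HSF1, was 7.48 in Oasl1-/-, below the floor, and 7.85 in WT, at least 1.12-fold lower. Hsbp1, which binds HSF1, was 10.92 in Oasl1-/- and 10.98 in WT (-0.05). Hsf1, also named after its value was seen, was below the floor on both arrays, at 7.08 in Oasl1-/- and 7.35 in WT.

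Other chaperones of organelles are given last. The 7 other mitochondrial chaperones and proteases above the floor had a median of -0.02, which turned positive with centring (0.02), with the trend removed (0.06) and with quantile normalization (0.05). Grpel1, the exchange factor of mitochondrial HSP70, was 8.17 in Oasl1-/- and 8.06 in WT (0.11), and Htra2, a protease, was 9.26 in Oasl1-/- and 9.40 in WT (-0.14). In the endoplasmic reticulum 6 of 7 relatives were higher, against 36.6% of all genes, with a median of 0.03. Under each of those scalings 7 of 7 were higher, where 50.0%, 49.5% and 51.9% of all genes were lower. Hyou1, an HSP110 relative, was 9.59 in Oasl1-/- and 9.39 in WT (0.20), and Hsp90b1, the HSP90 of that compartment, was 11.61 in Oasl1-/- and 11.49 in WT (0.12). Whether these lists differ from the members was not tested.

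**Figure D5:**
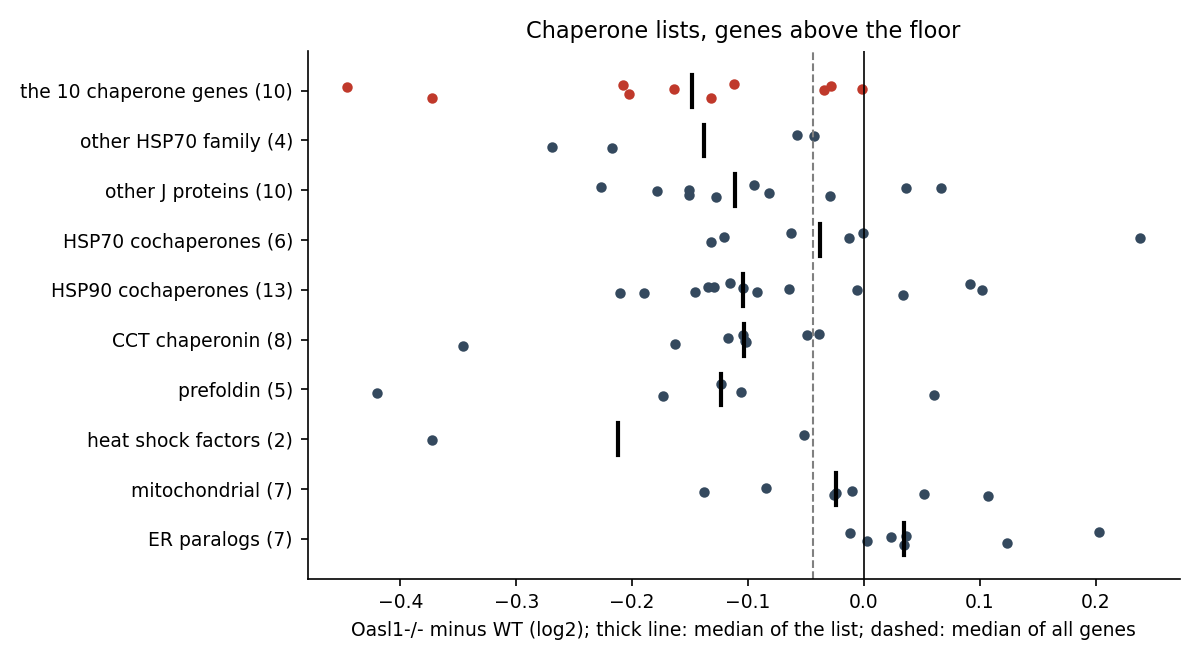
Difference of Oasl1-/- minus WT (log2, x axis) of single genes above the floor (points, spread vertically to separate them) in the 10 chaperone genes (red) and in 9 other lists, with the number of genes in brackets. Thick lines are list medians and the dashed line the median of all genes, -0.04; the median of the 10 chaperone genes lies at -0.15 and that of the endoplasmic reticulum relatives at 0.03.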

How the data were processed

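Values are log2 values of probe sets as deposited by the authors. GCOS and RMA are listed without versions, per the submitters' processing notes. Joint or separate normalization of the arrays was not given in the sources used here. The authors' log2 ratio column equals Oasl1-/- minus WT, and the second deposited table differed in 0 rows.

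Symbols were updated through RefSeq (GRCm38.p6): of 25305 probe sets with 1 symbol, 20515 matched by accession, 1840 by symbol and 1236 by a synonym, while 1714 kept the deposited name. A gene is represented by its brightest probe set on its own chromosome, and 46 genes with none there were left out. The floor used 5267 negative controls. Coordinates are those of the deposited table, whose transcript descriptions name NCBIM37.

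Members and lists were chosen with earlier results of these data known. Genes named from a list are those at least 1.5-fold different (at most 4), otherwise the 2 with the largest difference, and Oasl1 and all members in any case, with exceptions marked where they occur. The number of arrays limits the precision. The counting was tested on simulated data. Alternatives covered scaling, the floor, the fold, the probe set of a gene, the second table and log2 of the linear value plus 32. The versions were NumPy 2.4.6, statsmodels 0.14.6, pandas 2.3.3 and Matplotlib 3.10.9 under Python 3.11.15.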

Additional observations from a re-analysis of the deposited data

How the results depend on the processing

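The count of members at least 1.2-fold lower was 2 under each alternative scaling, floor and choice of probe set, and became 5 at 1.1-fold, 0 at 1.5-fold and 0 at 2-fold by construction. Of all genes, 9.06% were at least 1.2-fold lower as deposited. That share was 5.90% with centring, 4.80% with the loess trend removed and 5.37% with quantile normalization. It was 8.27% with no floor and 10.6% with the array median as the floor. The members' median ran from -0.16 to -0.10 over the alternatives, and the count of members lower in Oasl1-/- from 7 (centred) to 10. The share of all genes lower ran from 46.6% with no floor to 63.8% with the floor on both arrays, and was 50.0% with centring. Using the mean of all probe sets moved Hspa8 to -0.16, because it takes in the 2 short probe sets. Without those, an alternative chosen after seeing the data, 9 members were lower, against 63.5% of 6152 genes. The median of the heat shock factor list was -0.21, and -0.052 with no floor, with the floor on both arrays and with the array median as the floor, since other genes enter or Hsf2 leaves. At least 1.2-fold apart were 302 lower and 323 higher genes with the loess trend (span 0.3) removed, 338 and 294 with quantile normalization, and 1817 and 2381 with no floor. No paired analysis was possible because there is 1 array per genotype, and no array can be left out. Depth here is signal over background: genes as bright as Hsph1 had differences with a robust SD of 0.153, against 0.0614 for genes as bright as Hspa8.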
